A study of Mus musculus with 18 samples.

Results

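Cholesterol in the gut wall comes from synthesis within the cells and from uptake out of the lumen, and 32 genes of these routes were followed in whole-thickness ileum of mice that overexpress *Ppara* in the intestinal epithelium. The genes were taken by symbol from a list of 18 enzymes of cholesterol synthesis, 5 genes of SREBP2 control and sterol sensing, 6 genes of sterol transport and storage, and 3 genes of the liver X receptor (LXR) pathway. They are 32 of the 55487 genes in the count files, and all 32 were among the 12645 protein-coding genes tested.

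The samples were 6 control, 6 IEC-*Ppara* heterozygous and 6 IEC-*Ppara* homozygous ilea, each sequenced as 1 library of poly-A RNA. Mice of all 3 groups carried a CAG-*Ppara*,-*EGFP* transgene in the *Col1a1* locus on a C57BL/6J background, and the IEC-*Ppara* groups also carried *Villin-CreERT2*, a tamoxifen-dependent recombinase driven in intestinal epithelial cells. Controls lacked Cre and received the same tamoxifen, 100 mg/kg on 3 successive days at 8 to 13 weeks of age, and all mice ate chow. Tissue was taken 2 weeks after the last injection from 3 females and 3 males in the control group and from 2 females and 4 males in each IEC-*Ppara* group. The comparison asks whether a receptor best known for fatty acid oxidation shifts the sterol programme of the same tissue. Because the full wall was sequenced, fewer cells of a type and less RNA per cell cannot be told apart.

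When membrane sterol falls, the escort protein SCAP carries SREBP2 out of the endoplasmic reticulum to be cleaved, and the released factor switches on the enzymes of the mevalonate and sterol pathways. INSIG proteins hold SCAP back when sterol is plentiful. Oxysterols activate LXR, which raises the transporters that move cholesterol out of cells, so an enterocyte that takes up much sterol through NPC1L1 can return it to the lumen through ABCG5 and ABCG8 or pass it to lipoproteins through ABCA1.

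Library totals ran from 38528522 to 50376371 gene counts, with a median of 44387080. *Ppara* itself averaged 38.1 ± 8.40 CPM (counts scaled to the library total, SD, n = 6) in the control ilea, and it rose to 141 ± 35.4 CPM with 1 copy and 216 ± 35.5 CPM with 2 copies of the transgene, with log2 fold changes of 1.92 (edgeR adjusted p = 8.43e-06) and 2.51 (edgeR adjusted p = 2.06e-07). All 7 ileal enterocyte markers on the list used here passed the filter on low values, none at 0, and their summed level was 6140 to 10065 CPM over the libraries. The sum of the smooth muscle markers, 10 of 10 past the filter, ran from 682 to 6140 CPM over the controls, from 852 to 4510 CPM over the heterozygous and from 4157 to 9690 CPM over the homozygous group. Their part in the results that follow was not tested beyond a fit that holds the smooth muscle level as a covariate.

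None of the 32 sterol genes passed the test in any genotype comparison. Few of all genes passed either, so a count of 0 does not set these 32 apart. By the edgeR quasi-likelihood test with Benjamini-Hochberg adjustment over 12645 genes, 0 of 32 were called at adjusted p under 0.05 between homozygous and control ilea, where 0.411% of all genes were called. The same count was 0 of 32 between heterozygous and control (0.293% of all genes), between homozygous and heterozygous (0.00791%), and between the mean of the IEC-*Ppara* groups and control (0.554%). DESeq2 and limma-voom also called 0 of 32 in each of the 3 pairwise comparisons, against backgrounds of 1.08% and 0.403% for homozygous against control, 0.633% and 0.269% for heterozygous against control, and 0.0791% and 0.00791% for homozygous against heterozygous.

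At an unadjusted p under 0.05 by edgeR, there was 1 of the 32 genes (*Abcg5*) between homozygous and control, against 8.06% of all genes. Between heterozygous and control there were 0, against 5.29% of all genes, and for the mean of the IEC-*Ppara* groups there were again 0, against 6.48%. Between homozygous and heterozygous there were 3 of 32 (*Abcg8*, *Abcg5* and *Abca1*), against 7.61%. Each of these counts was below or near the share over all genes, so they do not set the sterol genes apart. The groups' CPM values overlapped for each of the 32 genes in each pairwise comparison. Of all genes, 0.854% did not overlap between homozygous and control, 0.467% between heterozygous and control and 0.269% between homozygous and heterozygous. These shares are also too low for the overlap to set the 32 genes apart.

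The precision of these comparisons set the size of change that could have been seen. Log2 fold changes of the 32 genes ran from -0.29 (*Abcg5*) to 0.39 (*Abca1*) between homozygous and control, with a median standard error of 0.14. For 25 of the 32 genes the 95% interval of that difference lay within 0.5 log2 units of 0, which is a change of at most 1.41-fold. The corresponding number was 24 between heterozygous and control and 25 between homozygous and heterozygous. The median log2 fold change of the 32 was -0.03, 0.03 and -0.05 in those 3 comparisons, next to -0.0048, -0.0058 and -0.00014 over all genes tested.

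**Figure D1:**
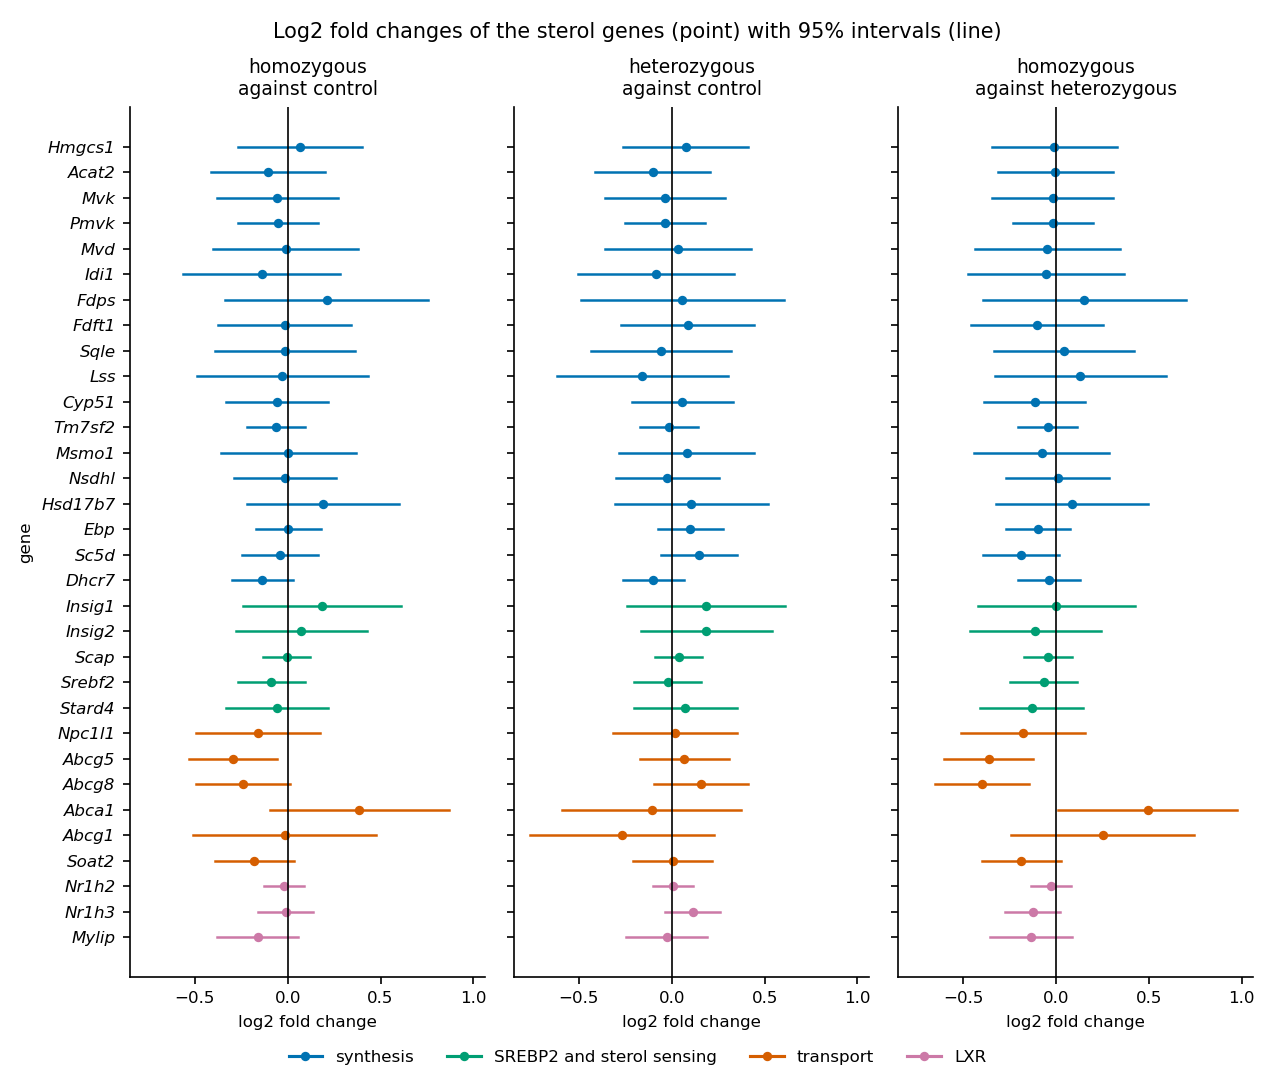
Log2 fold change (x axis) of each of the 32 sterol genes (y axis) in the 3 pairwise genotype comparisons, coloured by role, with lines for 95% intervals of the edgeR fit. The synthesis enzymes sit near 0 in all 3 panels, and the points farthest from 0 are *Abcg5*, *Abcg8* and *Abca1* in the homozygous group.

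The enzymes of cholesterol synthesis covered a broad range of levels in control ileum, given here in FPKM (fragments scaled to transcript length and library total, so that genes can be compared). *Hmgcs1*, the cytosolic HMG-CoA synthase near the head of the pathway, was highest at 69.0 ± 10.3 FPKM (SD, n = 6). *Acat2*, the thiolase that joins acetyl-CoA units in the step before it, was at 10.7 FPKM. The kinases *Mvk* and *Pmvk*, which phosphorylate mevalonate in turn, were at 14.1 and 22.3 FPKM. The decarboxylase *Mvd* was at 27.1 FPKM and the isopentenyl diphosphate isomerase *Idi1* at 8.95 FPKM.

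Farnesyl diphosphate is built by *Fdps*, the lowest of the 32 genes at 1.64 ± 0.53 FPKM. That value is uncertain, since 26.7% of its exon bases are shared with another protein-coding gene model on the same strand and the authors counted only reads that fitted 1 gene. *Fdft1*, the squalene synthase that commits the pathway to sterols, was at 34.0 FPKM, with the squalene epoxidase *Sqle* at 33.3 and the lanosterol synthase *Lss* at 5.72 FPKM. Of the exon bases of *Fdft1*, 18.3% are shared with *Ctsb* on the opposite strand, so its level too may miss reads. After lanosterol, the demethylase *Cyp51* was at 46.3 FPKM. The 3 enzymes that act together on the methyl groups, *Msmo1*, *Nsdhl* and *Hsd17b7*, were at 23.6, 18.1 and 8.99 FPKM. The reductase *Tm7sf2*, which shares 12.1% of its exon bases with *Vps51* on the same strand, was at 9.93 FPKM, the isomerase *Ebp* at 26.3, the desaturase *Sc5d* at 26.6 and *Dhcr7*, which reduces the last precursor on one branch, at 12.5 FPKM.

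No enzyme separated the genotypes. The mean log2 CPM of the 18 enzymes, used here as a synthesis score, was 6.00 ± 0.20 (SD, n = 6) in controls, 5.96 ± 0.27 in heterozygous and 5.98 ± 0.18 in homozygous ilea. Genotype held 0.617% of the score's variance over the 18 libraries. The median log2 fold change of the 18 was -0.02 between homozygous and control, 0.01 between heterozygous and control and -0.03 between homozygous and heterozygous. *Hmgcs1* had CPM values of 264, 307 and 401 (lowest, median and highest) in controls, 245, 319 and 412 in heterozygous and 256, 320 and 410 in homozygous ilea, so each group spanned nearly the same range.

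*Sc5d* had the second lowest p of the 32 genes between heterozygous and control. Its CPM values were 115, 131 and 139 in controls, 114, 145 and 166 in heterozygous and 114, 129 and 134 in homozygous ilea. The heterozygous group reached higher than the others and also held a library as low as theirs. The log2 fold change was 0.14 with a standard error of 0.10 (edgeR adjusted p = 0.9996), and 0.078 without heterozygous 5.

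The libraries nonetheless differed from each other in synthesis, and most of the enzymes moved together when they did. The score spanned 1.56-fold from its lowest to its highest library, and the high and low libraries came from all 3 genotypes. Over 18 libraries, after removal of the genotype means, the 153 pairs of enzymes had a median Pearson's r of 0.77 in log2 CPM, with a range of -0.17 to 0.97, and 70 pairs were above 0.8. These correlations are descriptions, since the points share libraries and depth scaling. The 3 closest pairs among all 32 genes were *Hmgcs1* with *Cyp51* (r = 0.97), *Hmgcs1* with *Fdft1* (r = 0.97) and *Fdft1* with *Msmo1* (r = 0.97).

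*Fdft1* shows the pattern library by library. Its CPM values were 116, 122, 181, 151, 135 and 136 in control replicates 1 to 6, 111, 114, 135, 183, 196 and 132 in the heterozygous and 129, 164, 103, 122, 146 and 164 in the homozygous ones. Control 3, heterozygous 4 and 5 and homozygous 2 and 6 were high, and control 1 and 2, heterozygous 1 and 2 and homozygous 3 and 4 were low.

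**Figure D2:**
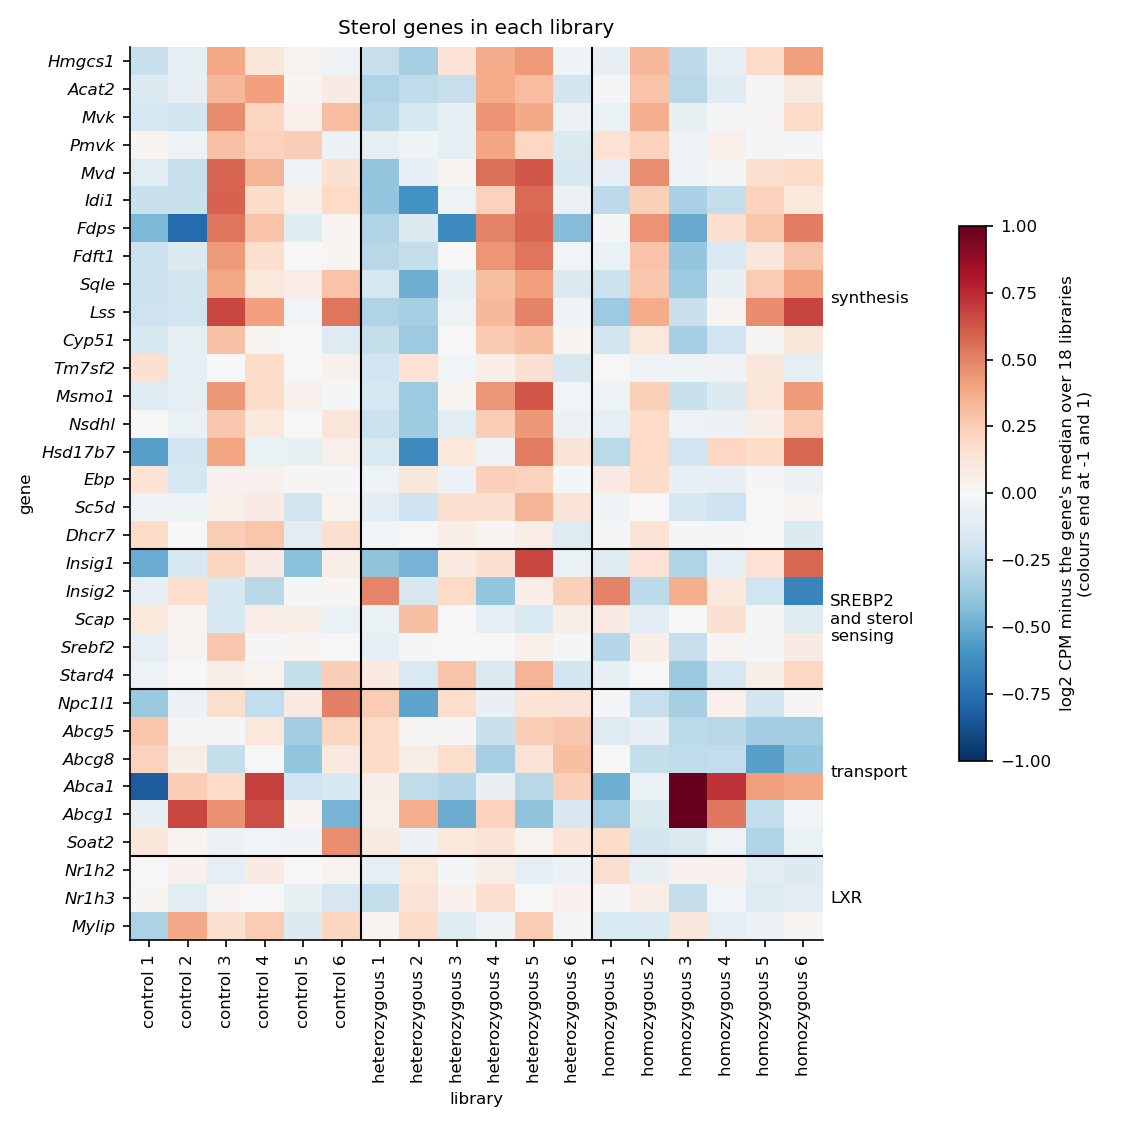
Log2 CPM of each of the 32 sterol genes (rows, grouped by role) in each of the 18 libraries (columns, grouped by genotype), minus the gene's median over all libraries, with the scale ending at -1 and 1. Columns such as control 3, heterozygous 5 and homozygous 2 are high over most of the 18 synthesis enzymes, and no genotype is high or low as a block.

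The tie to the rest of the pathway was not equal over the enzymes. Of the 18, 10 had r above 0.9 with the mean of the other 17, led by *Fdft1* (0.98), *Msmo1* (0.96), *Idi1* (0.95) and *Hmgcs1* (0.94). The weakest were *Tm7sf2* (0.28), *Dhcr7* (0.39) and *Ebp* (0.53). These act after lanosterol, but so do *Msmo1*, *Nsdhl* (0.94) and *Cyp51* (0.92), which were closely tied. *Tm7sf2*, *Dhcr7* and *Ebp* also varied least of the 18, with their highest library 1.30, 1.34 and 1.33 times the lowest. The same ratio was 1.90 for *Fdft1* and 2.29 for *Idi1*.

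Most of the synthesis promoters examined hold a short motif known as a binding site of NF-Y, a factor that works beside SREBP2 at many sterol promoters. Windows from 250 bases before to 50 after the RefSeq start (GRCm38.p6) were given for 26 of the 32 genes. CCAAT, searched on both strands and so also read as ATTGG, was in the window of 14 of the 15 synthesis enzymes with one (93.3%) and of 21 of the 26 genes (80.8%), against 41.1% of 27025 genes with a window. The sterol regulatory element TCACNCCAC, on both strands, was in 1 of the 26 (*Hmgcs1*), against 1.44% of all genes. Direct repeats of AGGTCA spaced by 1 base (DR1, the arrangement bound by PPARα with its partner RXR) or by 4 bases (DR4, bound by LXR with RXR), also on both strands, were in 0 of the 26, against 0.0481% and 0.0148% of all genes. A match is a run of letters and not a shown binding site, and the letters searched are a strict form of each motif. The 150 bases before the start of 3 closely tied enzymes are printed 5′ to 3′ on the gene's strand to show the spacing of these motifs. They were taken only from enzymes with 1 window and a CCAAT or ATTGG box in these bases, so the boxes in them are no result. *Fdft1*, the most closely tied enzyme, is not among the genes found with CCAAT, and the loosely tied *Tm7sf2*, *Dhcr7* and *Ebp* are. The CCAAT or ATTGG boxes and the sterol regulatory element are in capitals.
Hmgcs1 (chr13:119690201-119690350, plus strand): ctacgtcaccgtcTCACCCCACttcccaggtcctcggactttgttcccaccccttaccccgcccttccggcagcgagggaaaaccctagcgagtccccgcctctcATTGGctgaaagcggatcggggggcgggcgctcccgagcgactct
Msmo1 (chr8:64733579-64733728, minus strand): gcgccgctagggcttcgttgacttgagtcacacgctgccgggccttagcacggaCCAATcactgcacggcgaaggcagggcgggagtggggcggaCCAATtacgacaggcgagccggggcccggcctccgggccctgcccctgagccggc
Idi1 (chr13:8885456-8885605, plus strand): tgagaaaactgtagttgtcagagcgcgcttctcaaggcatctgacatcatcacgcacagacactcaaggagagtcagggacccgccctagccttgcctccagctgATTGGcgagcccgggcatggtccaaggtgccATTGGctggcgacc

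*Hmgcs1* has 1 box, which begins 45 bases before the start, and its sterol regulatory element begins 137 bases before it. *Msmo1* has 2 boxes, which begin 96 and 55 bases before the start, and *Idi1* has 2, at 45 and 14 bases.

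No gene of sterol sensing passed the test between genotypes, and across libraries these genes divided into those that followed synthesis and those that ran against it. *Srebf2*, which encodes SREBP2, was at 57.8 ± 5.27 FPKM (SD, n = 6) in controls, and its log2 fold change was -0.09 between homozygous and control (95% interval -0.27 to 0.09), or -0.028 without control 3. *Insig1* and *Insig2*, the anchors that retain SCAP, were at 34.1 and 16.2 FPKM, *Scap* at 8.94 FPKM and *Stard4*, a soluble sterol carrier, at 49.5 FPKM. The 5 genes had a median log2 fold change of -0.01 between homozygous and control, which turned to 0.08 with the smooth muscle covariate, and 0.07 between heterozygous and control.

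*Insig1*, itself a target of SREBP2, tracked the mean of the synthesis enzymes with r = 0.88, and *Srebf2* did so with r = 0.64 and *Stard4* with r = 0.49. *Stard4* had larger negative r with the markers of macrophages and dendritic cells (-0.70) and of smooth muscle (-0.67), whose part was not tested. Against the synthesis mean, *Scap* ran the other way (r = -0.71), as did *Insig2* (r = -0.61). The 3 lowest pairs among all 32 genes were *Scap* with *Nsdhl* (r = -0.79), *Sqle* (r = -0.79) and *Idi1* (r = -0.77). Within genotypes, *Scap* with the synthesis mean had r = -0.72 in controls, -0.70 in heterozygous and -0.72 in homozygous ilea, from 6 libraries each. The highest library of *Scap* was 1.38 times its lowest, so its swing was small next to the 2.24 times of *Insig1* and the 2.22 times of *Insig2*.

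**Figure D3:**
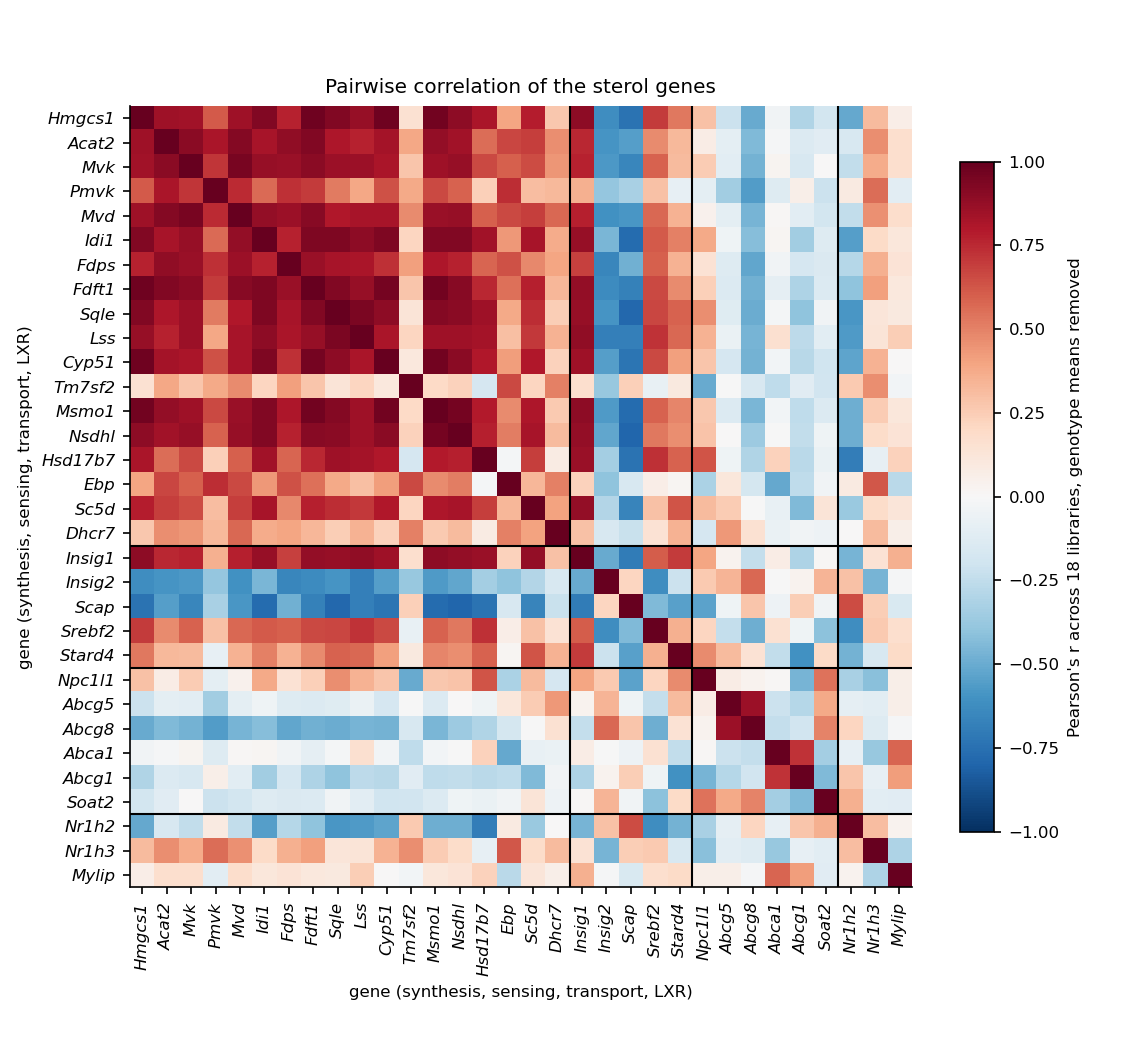
Pearson's r of log2 CPM between each pair of the 32 sterol genes across 18 libraries after removal of genotype means, with lines between the synthesis, sensing, transport and LXR groups. A block of high r joins most synthesis enzymes with *Insig1*, while *Scap* and *Insig2* are negative against that block. *Abcg5* pairs with *Abcg8* (r = 0.85) and *Abca1* with *Abcg1* (r = 0.72) apart from it.

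Libraries with high synthesis were also those with high *Dbp* and low *Arntl*, opposite arms of the circadian clock. *Dbp*, a clock output factor, and *Arntl*, the clock activator also called BMAL1, were examined after the values had been seen, and the hour of tissue collection was not given in the sources used here. The libraries fell into 2 sets. In 8 libraries (3 control, 2 heterozygous, 3 homozygous) *Dbp* was at 68.4 to 119 CPM and *Arntl* at 10.7 to 21.3 CPM, and the synthesis score was 6.04 to 6.34. In the other 10 (3 control, 4 heterozygous, 3 homozygous) *Dbp* was at 21.7 to 39.1 CPM and *Arntl* at 31.3 to 45.2 CPM, and the score was 5.70 to 5.94. The score did not overlap between these sets.

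Inside the sets the relation had opposite signs. Pearson's r between the score and log2 *Dbp* minus log2 *Arntl* was 0.38 (Spearman's rho 0.33) in the 8 libraries and -0.39 (rho -0.33) in the 10, each from few libraries over a narrowed range. The mean r over the 153 enzyme pairs was 0.665 over all libraries, 0.364 within the 8 and 0.295 within the 10. *Mvd*, *Idi1*, *Fdft1*, *Sqle*, *Lss* and *Nsdhl* did not overlap between the sets. The other enzymes did, *Hmgcs1*, *Cyp51* and *Msmo1* among them. The share of all genes that do not overlap between these sets is not given here, so this is a description only. *Lss*, for example, was at 65.5, 73.0 and 83.4 CPM (lowest, median, highest) in the 8 libraries and 40.6, 45.5 and 53.4 CPM in the 10. *Sqle* was at 186, 212 and 231 CPM against 123, 153 and 182 CPM. The first set held 4 females and 4 males, the second 3 females and 7 males. With log2 *Dbp* minus log2 *Arntl*, *Insig1* had r = 0.78, *Srebf2* 0.54, *Stard4* 0.53, *Scap* -0.61 and *Insig2* -0.70 over the 18 libraries. The mean log2 level of the epithelial markers also ran with the score, with r = 0.61 over 18 libraries after removal of genotype means. Taken by group, with 6 libraries each, control, heterozygous and homozygous ilea had r = 0.46, 0.98 and 0.61 for these markers, next to 0.87, 0.84 and 0.96 for *Dbp* minus *Arntl*. The part of these markers was not tested.

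With log2 *Dbp* minus log2 *Arntl* as a covariate in the edgeR fit, an alternative chosen after the data were seen, 0 of the 32 sterol genes were called in the genotype comparisons. Over all 12645 genes that fit called 58 between homozygous and control, 39 between heterozygous and control, 0 between homozygous and heterozygous and 63 for the mean of the IEC-*Ppara* groups.

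**Figure D4:**
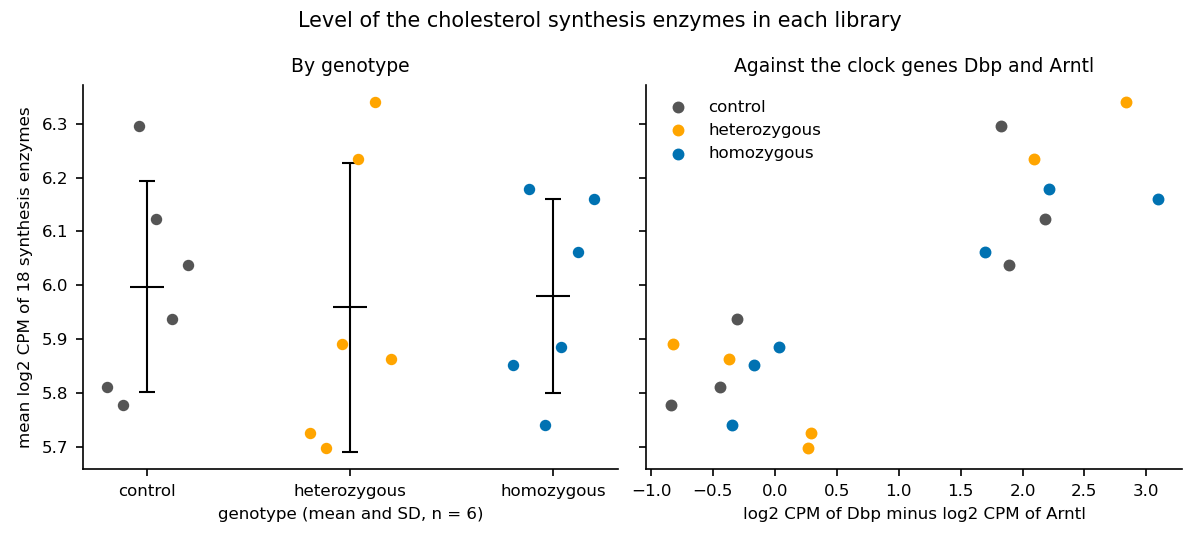
Mean log2 CPM of the 18 synthesis enzymes in each library, by genotype with mean and SD (left, n = 6 a group) and against log2 CPM of *Dbp* minus log2 CPM of *Arntl* (right). The group means are 6.00, 5.96 and 5.98, and the 8 libraries on the right side of the right panel all lie at 6.04 or above, the other 10 at 5.94 or below.

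Transport genes held the most abundant member and, in the comparisons of the homozygous group with each other group, those with the lowest p values. *Npc1l1*, the brush border protein that takes up luminal cholesterol, was the highest of the 32 at 192 ± 43.0 FPKM (SD, n = 6) in controls. The half-transporters *Abcg5* and *Abcg8*, which pair to return sterols to the lumen, were at 92.1 ± 13.4 and 67.1 ± 10.4 FPKM. *Soat2*, which esterifies absorbed cholesterol, was at 41.5 FPKM, while *Abca1* and *Abcg1*, which export cholesterol to lipoproteins, were low at 3.90 and 1.75 FPKM. The median log2 fold change of the 6 was -0.17 between homozygous and control and 0.01 between heterozygous and control, next to -0.0048 and -0.0058 over all genes tested.

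*Npc1l1* did not separate the genotypes. Its CPM values were 641, 839 and 1177 (lowest, median and highest) in controls, 577, 910 and 991 in heterozygous and 659, 777 and 861 in homozygous ilea. The homozygous values lay inside the range of the controls, and the log2 fold change was -0.16 with a 95% interval of -0.49 to 0.17. It was -0.011 without control 6 and -0.0028 with the smooth muscle covariate.

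*Abcg5* (chr17:84658234-84683011, GRCm38, minus strand) was at 291, 241, 239, 258, 189 and 279 CPM in control replicates 1 to 6, at 274, 242, 242, 206, 285 and 289 CPM in the heterozygous and at 220, 226, 199, 198, 189 and 189 CPM in the homozygous ones. All homozygous libraries lay at or below 226 CPM, and control 5 and heterozygous 4 were the libraries of the other groups that fell among them. Homozygous against control, the log2 fold change was -0.29 (SE 0.11, edgeR adjusted p = 0.511), and homozygous against heterozygous it was -0.36 (SE 0.11, edgeR adjusted p = 0.530). Neither passed. Between heterozygous and control it was 0.07 (SE 0.11), and -0.0052 without control 5.

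*Abcg8* (chr17:84676302-84700333, plus strand) is the neighbour of *Abcg5* on the opposite strand, and the annotated spans of the pair overlap. Its CPM values were 300, 268, 217, 255, 195 and 274 in control replicates 1 to 6, 292, 269, 290, 203, 280 and 316 in the heterozygous and 257, 217, 215, 216, 176 and 196 in the homozygous ones. The same control 5 and heterozygous 4 were the lowest of their groups. Homozygous against heterozygous, it had the lowest p of the 32 genes, with a log2 fold change of -0.40 (SE 0.12, edgeR adjusted p = 0.505). It was -0.24 (SE 0.12) between homozygous and control (edgeR adjusted p = 0.635) and 0.16 (SE 0.12) between heterozygous and control (edgeR adjusted p = 0.9996). The last was 0.089 without control 5 and 0.24 without heterozygous 4.

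The pair moved as one unit, with r = 0.85 across the 18 libraries after removal of genotype means. The bases between the RefSeq start of *Abcg5* and the nearer RefSeq start of *Abcg8* are printed on the plus strand. A farther start of *Abcg8*, which the gene span given above uses, lies inside *Abcg5*, so the printed bases are upstream of 1 form of *Abcg8* and within the other.
Abcg5-Abcg8 (chr17:84683012-84683120): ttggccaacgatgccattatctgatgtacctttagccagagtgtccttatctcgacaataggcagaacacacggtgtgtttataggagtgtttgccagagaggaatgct

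These 109 bases hold 0 copies of CCAAT, on either strand, or of the sterol regulatory element. Elsewhere in their promoter windows both *Abcg5* and *Abcg8* have CCAAT on 1 of the strands. Reads in the 82 exon bases that the annotation gives to both genes on opposite strands may not be assigned to either.

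The summed level of the 7 ileal enterocyte markers moved with the pair. Its median was 8812 CPM in controls (range 6977 to 10065), 9005 CPM in the heterozygous group (range 7446 to 9408) and 6834 CPM in the homozygous group (range 6140 to 9208), and the mean log2 level of those markers had r = 0.70 with *Abcg5* and r = 0.45 with *Abcg8* within genotypes. The summed level of the 8 general enterocyte markers ran the other way, with medians of 15333, 15984 and 16978 CPM in control, heterozygous and homozygous ilea and overlapping groups, and their mean log2 level had r = 0.39 with *Abcg5* and 0.12 with *Abcg8*. Control 5, the lowest control for the pair, was also the lowest control for these markers at 6977 CPM. Heterozygous 4 was likewise the lowest of its group at 7446 CPM. Homozygous 1, with markers at 9208 CPM, was the highest of its group for the markers and for *Abcg8* (257 CPM). Its *Abcg5*, at 220 CPM, was below homozygous 2 (226 CPM) and below every control but control 5. The part of these markers in the lower values of the pair was not tested.

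*Abca1* (chr4:53030787-53159895, minus strand) was at 21.7, 46.0, 44.1, 62.3, 33.8 and 34.7 CPM in control replicates 1 to 6, at 40.6, 32.5, 31.7, 36.9, 32.0 and 45.8 CPM in the heterozygous and at 27.6, 37.0, 85.4, 63.8, 51.8 and 50.7 CPM in the homozygous ones. Homozygous 3 and 4 were the highest of all 18 libraries, and the other homozygous values lay inside the range of the controls. Its log2 fold change was 0.49 (SE 0.23, edgeR adjusted p = 0.642) between homozygous and heterozygous. Without homozygous 3 it was 0.32 (edgeR adjusted p = 0.990).

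Markers of macrophages and dendritic cells, 12 of 12 past the filter and none at 0, moved with *Abca1*. Their sum ranged from 695 to 1374 CPM among controls, from 677 to 1197 CPM among heterozygous and from 691 to 1779 CPM among homozygous samples. Homozygous 3 and 4 were the highest of all libraries at 1779 and 1563 CPM. The mean log2 level of these markers had r = 0.74 with *Abca1* and r = 0.84 with *Abcg1*, the latter at 8.24, 10.0 and 23.0 CPM in homozygous ilea with homozygous 3 the highest. Other lists moved with these genes too, with r = 0.59 for fibroblast and -0.61 for epithelial markers against *Abca1*, and 0.69 and -0.67 against *Abcg1*. Homozygous 3 had the highest smooth muscle sum (9690 CPM), the highest fibroblast sum (5133 CPM) and the lowest epithelial sum (12709 CPM) of the 18 libraries. The part of these markers was not tested.

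*Soat2* was at 82.9, 86.2 and 119 CPM (lowest, median and highest) in controls, 82.5, 92.3 and 94.8 CPM in heterozygous and 70.0, 80.2 and 98.1 CPM in homozygous ilea. The homozygous group reached lower than the others and overlapped them. The log2 fold change between homozygous and control was -0.18 (SE 0.10), the third lowest p there (edgeR adjusted p = 0.683). It was -0.060 without control 6 and -0.066 with the smooth muscle covariate.

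**Figure D5:**
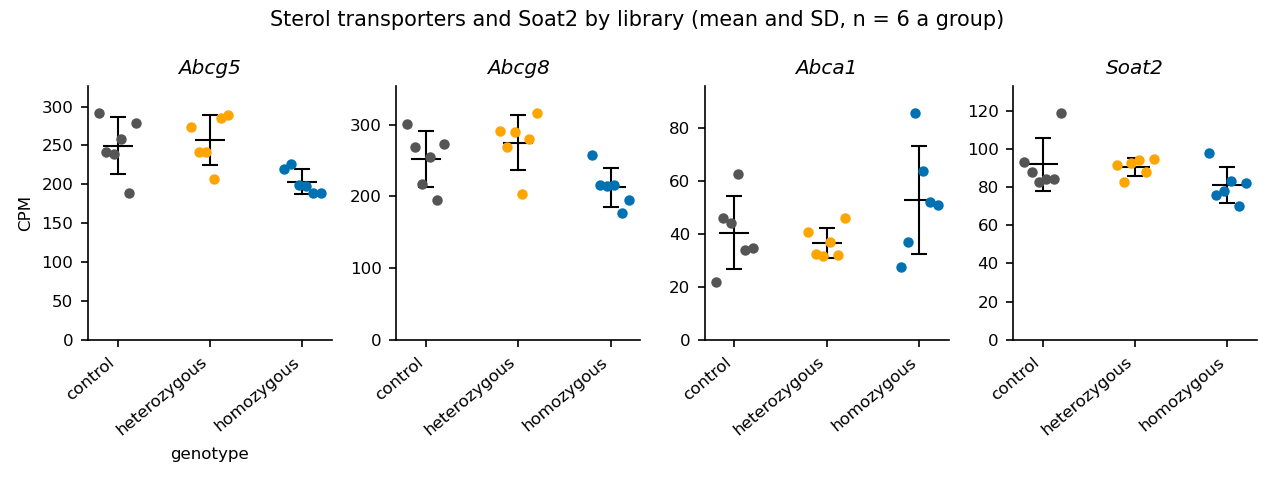
CPM of *Abcg5*, *Abcg8*, *Abca1* and *Soat2* in each library by genotype (points), with mean and SD (black, n = 6 a group). Homozygous ilea average 204 CPM for *Abcg5* against 250 CPM in controls, with overlap, and the *Abca1* points of the homozygous group spread from 27.6 to 85.4 CPM.

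The genes of the LXR receptors were among the steadiest of the 32. *Nr1h2*, which encodes LXRβ, was at 41.5 ± 1.77 FPKM in controls and *Nr1h3*, which encodes LXRα, at 19.5 ± 0.98 FPKM, and the highest library was 1.22 and 1.33 times the lowest. *Mylip*, an LXR-induced ubiquitin ligase that marks lipoprotein receptors for degradation, was at 11.7 FPKM. *Nr1h3* had the lowest p of the 32 genes between heterozygous and control. Its CPM values were 45.3, 49.4 and 51.4 in controls, 43.0, 52.3 and 57.2 in heterozygous and 43.0, 48.4 and 53.1 in homozygous ilea. The heterozygous values spread to both sides of the controls, and the log2 fold change was 0.11 (SE 0.07, edgeR adjusted p = 0.9996).

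Sex made no difference that passed the test. With genotype in the model, 0 of the 32 were called between females and males, against 0.0554% of all genes, and 0 were at an unadjusted edgeR p under 0.05, against 3.39% of all genes. The log2 fold changes ran from -0.22 (*Hsd17b7*) to 0.14 (*Abcg5*), females minus males. Without heterozygous 2 that of *Hsd17b7* was -0.12, and without control 5 that of *Abcg5* was 0.094.

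A wider list of 42 sterol genes outside the 32, of which 39 were tested, held 2 that were called between homozygous and control and for the mean of the IEC-*Ppara* groups, both higher, where 0.411% and 0.554% of all genes were called. It held 1 called between heterozygous and control (0.293% of all genes) and 0 between homozygous and heterozygous (0.00791%). The median log2 fold change of the 39 was 0.04, 0.05 and 0.0013 in the 3 pairwise comparisons, beside the medians over all genes given above.

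*Nceh1*, which hydrolyses stored cholesterol esters, rose in both IEC-*Ppara* groups. Its CPM values were 14.6, 20.9 and 25.4 (lowest, median and highest) in controls, 25.7, 29.9 and 37.3 in heterozygous and 28.5, 33.6 and 36.6 in homozygous ilea. No IEC-*Ppara* library fell to the level of a control. The log2 fold change was 0.73 (SE 0.11, edgeR adjusted p = 0.00138) between homozygous and control and 0.60 (SE 0.11, edgeR adjusted p = 0.0138) between heterozygous and control. For the mean of the IEC-*Ppara* groups it was 0.67 (SE 0.10, edgeR adjusted p = 0.00101). The call between heterozygous and control was lost without control 3 (0.59, edgeR adjusted p = 0.05004), with only the control and heterozygous libraries in the fit (0.60, edgeR adjusted p = 0.0905) and with the replicate block (0.60, edgeR adjusted p = 0.0549).

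*Osbpl1a*, a sterol-binding protein of late endosomes, was at 10.2, 13.3 and 17.7 CPM in controls, 14.0, 18.5 and 21.9 CPM in heterozygous and 18.8, 20.1 and 23.7 CPM in homozygous ilea. The homozygous values all lay above the controls, and the heterozygous ones overlapped both groups. The log2 fold change was 0.61 (SE 0.12, edgeR adjusted p = 0.0276) between homozygous and control and 0.43 (SE 0.12, edgeR adjusted p = 0.306) between heterozygous and control. The first call was lost without any 1 of control 1, 3, 4, 5 and 6 or homozygous 3, 5 and 6, with log2 fold changes of 0.56 to 0.62 and edgeR adjusted p of 0.0521 to 0.0851. It was also lost with the smooth muscle covariate (0.61, edgeR adjusted p = 0.0570) and the replicate block (0.61, edgeR adjusted p = 0.102). For the mean of the IEC-*Ppara* groups, the call (0.52, SE 0.11, edgeR adjusted p = 0.0325) was lost with library size in place of TMM (0.49, edgeR adjusted p = 0.0660), with the replicate block (0.51, edgeR adjusted p = 0.134), and without any 1 of 11 libraries, control 1, 3, 4, 5 and 6, heterozygous 3, 5 and 6 and homozygous 3, 5 and 6 (0.48 to 0.53, edgeR adjusted p = 0.0515 to 0.101).

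Between homozygous and heterozygous, where no gene of the wider list passed, the lowest p values were those of *Dhdds*, a subunit of the enzyme that makes dolichol from farnesyl diphosphate (log2 fold change 0.14, edgeR adjusted p = 0.629), and *Osbpl2*, a lipid transfer protein (log2 fold change -0.10, edgeR adjusted p = 0.642). Of the wider list, *Erg28*, a scaffold of the sterol demethylation enzymes, tracked the synthesis score most closely, with r = 0.85 over 18 libraries after removal of genotype means, and *Mbtps1*, the protease that makes the first cut in SREBP2, was the most negative at -0.68.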

How the data were processed

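RNA-seq was analysed from 18 ilea. Per the study's methods and the submitters' processing notes, the authors aligned paired reads to the Ensembl release 101 assembly (GRCm38) with STAR and counted unambiguous reads per gene with featureCounts of Subread. The deposited files hold, per library, these gene counts and the authors' FPKM values. A joint table by the authors gives CPM, used here for symbols and biotypes. It repeats 287 identifiers, and its CPM differed from those computed from the counts by at most 1e-11. A table of log2 values was not used.

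The counts were fitted with the edgeR 4.0.16 quasi-likelihood test (TMM scaling, 1 coefficient per genotype, 18 libraries) over 12645 protein-coding genes with CPM above 3 in at least 4 libraries, a filter taken from the study's methods that need not leave the same genes as there, with Benjamini-Hochberg adjustment over all of them and calls at 0.05. The sex comparison added sex to genotype. limma 3.58.1 (voom), DESeq2 1.42.0 and other scalings, filters, covariates and libraries were alternatives. No outcome of a check of the fit on simulated data is reported here. Correlations were taken on log2 CPM after adding 2 to each count, scaled to library size. A p-value weighs a difference between groups against the spread between libraries within groups. In the main fit that spread was estimated over all 18 libraries.

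All 32 genes are given by level. Values with fold change, error and adjusted p are given for any gene that was called and for the 3 with the lowest p in each pairwise comparison. Genes of the wider list are named if called, or otherwise by the 2 lowest p. *Erg28* and *Mbtps1* are named as those with the highest and lowest r with the synthesis score. Genes and lists were chosen with earlier results of these data known. Some sterol genes are not reported here. Promoter sequences are from RefSeq (GRCm38.p6), and exon overlaps and positions from GENCODE M21.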

Additional observations from a re-analysis of the deposited data

Results flagged for a closer look

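Of 96 sets of values (32 genes in 3 groups), 3 held a library far from the other 5 of its group by Dixon's criterion, which chance meets in about 1 of 20 sets. Control 3 had *Cyp51* at 251.239 CPM, with the other controls at 183 to 209 CPM, and *Srebf2* at 488.619 CPM, with the others at 379 to 412 CPM. Control 3 also had the second highest synthesis score of the 18 libraries. Control 6 had *Soat2* at 118.782 CPM, with the other controls at 82.9 to 93.3 CPM.

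*Sc5d* differed in direction between the sexes. Heterozygous females, at 122 and 114 CPM, were below all 3 control females (126, 139 and 135 CPM), while the 4 heterozygous males, at 148, 147, 166 and 144 CPM, were above all 3 control males (127, 136 and 115 CPM). The difference of the log2 fold changes, females minus males, was -0.495689, and the interaction test of edgeR over all genes gave an adjusted p of 0.311, so it did not pass. The same difference was below 0 for 18 of the 18 synthesis enzymes, with larger sizes for *Lss* (-0.66), *Idi1* (-0.63) and *Mvd* (-0.58). The share of all genes below 0 is not given here. For homozygous against control, the difference was above 0 for all of these enzymes but *Tm7sf2* and *Dhcr7*, as for *Idi1* (0.54), *Hmgcs1* (0.43) and *Sc5d* (0.04). The share of all genes above 0 is not given either. Most of the enzymes moved together and each IEC-*Ppara* group held 2 females, so the enzymes are not separate observations. The 2 heterozygous females had the lowest synthesis scores of the 18 libraries (5.72 and 5.70), both in the set with low *Dbp* and high *Arntl*. Both homozygous females (2 and 5) and the male homozygous 6 were in the set with high *Dbp*. The males homozygous 1, 3 and 4 were in the set with low *Dbp*. The part of these sets in the signs was not tested.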

How the results depend on the processing

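The count of sterol genes called remained 0 of 32 in the 3 pairwise genotype comparisons under DESeq2, limma-voom, RLE factors, library size alone, no filter, a minimum of 10 counts, all biotypes, sex as a covariate, only the libraries compared, the clock and smooth muscle covariates (both chosen after the data were seen), and each of the 18 libraries left out. It was also 0 with the replicate block, where 49, 22 and 0 genes of all tested were called in place of 52, 37 and 1. The replicate numbers were not taken to pair the samples, since correlations of same-numbered samples ran from -0.606 to 0.642. The mean of the IEC-*Ppara* groups and the sex comparison also stayed at 0 under the alternatives run, which left out fitting only the libraries compared and, for sex, the covariates and the block. The 9 fold changes of the genes with the 3 lowest p in each pairwise comparison kept their direction and remained without a call in all 30 alternatives each. Of the other fold changes printed among the 32, with alternatives added after the data were seen, *Abcg5* between heterozygous and control changed sign without control 5, from 0.07 to -0.0052 (-0.0052 to 0.13 with 1 library left out), and the rest (*Srebf2*, *Npc1l1* and *Abca1* between homozygous and control, *Hsd17b7* and *Abcg5* between sexes) kept their direction without a call. Sizes moved by over 1.5 times with 1 library left out for several of these uncalled values. Between homozygous and control the ranges were -0.24 to -0.060 for *Soat2*, -0.23 to -0.011 for *Npc1l1*, -0.12 to -0.028 for *Srebf2* (also smaller without homozygous 1 or 3) and 0.21 to 0.53 for *Abca1*, lowest without homozygous 3. Over the other settings of the fit, *Abcg8* ran from -0.25 to -0.17 there and from -0.41 to -0.31 between homozygous and heterozygous. *Abca1* ran from 0.34 to 0.53 in the latter. DESeq2 called 136 genes in all between homozygous and control, 80 between heterozygous and control and 10 between homozygous and heterozygous. The median of the sensing genes between homozygous and control moved from -0.01 to 0.08 with the smooth muscle covariate. The mean r of the enzyme pairs, 0.665, was 0.566 in homozygous libraries, 0.760 with TMM scaling and 0.413 after regression on *Dbp* minus *Arntl*, and ran from 0.608 to 0.693 with 1 library left out. The losses of call for *Nceh1* and *Osbpl1a* stand in the report beside their values. The causes were not tested.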
